A study of Mus musculus with 18 samples.

Results

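The genes described here code for 9 chemokine receptors, *Ccr1*, *Ccr2*, *Ccr4*, *Ccr6*, *Ccr7*, *Ccr9*, *Cxcr2*, *Cxcr4* and *Cxcr5*, out of 21951 protein-coding mouse genes. Their DNA methylation was read from whole-genome bisulfite sequencing (WGBS), a method in which bisulfite changes only cytosines without a methyl group, so that each cytosine gets a methylated share. The deposited tables, 1 per cell type, list regions of the genome with the mean methylation of wild-type (WT) mice and of mice with the mutation R878H in 1 copy of *Dnmt3a*, the gene of a de novo DNA methyltransferase. A listed region was assigned to a receptor where it overlapped the gene body in GENCODE extended by 10 kb on each side, and a segment of 110 kb of chromosome 9, from the end of *Bcl9l* through *Cxcr5* to the first part of the neighbouring gene *Ddx6*, was added to *Cxcr5*. This gave 122 of 411770 listed regions in CD11b+ and 177 of 553467 in CD4+ cells. The genes and the stretch were chosen by the same WT and mutant means, with earlier results on them known, so the differences between genotypes are given as a description, without a test.

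The cells were splenic CD11b+ cells, a mainly myeloid fraction, and CD4+ cells, a T helper fraction, of C57BL/6 mice, each isolated on magnetic columns. The mutant mice, labelled Dnmt3aR878/+, carried a conditional R878H allele that was recombined by Cre under the *Vav1* promoter, which is active in blood-forming cells from early in life, so all blood lineages carried it. The controls, labelled Dnmt3a+/+ and called WT here, had no recombined mutant allele, and the labels give no age for either genotype. Each of the 4 groups held 4 mice, although the labels list 18 entries, since the mutant CD11b+ cells have 6 entries for 4 mice. The entry titles also carry S numbers, whose meaning the labels do not give. In CD4+ cells these were high for all mutant and low for most WT entries, so number and genotype cannot be fully told apart. In CD11b+ cells only mutant entries had high numbers. The tables hold 1 mean per group and region, with no value per mouse and no sequencing depth, so no error between mice, no interval and no test over mice can be given, and every methylation level below is such a mean. The tables do not name the genotype of their columns, and the column read as WT is the more methylated one at most regions, as in the study's own density plots. Every direction below rests on that reading.

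Chemokine receptors are cell surface proteins that couple to inhibitory G proteins and steer leukocytes along gradients of small secreted chemokines. Which receptors a leukocyte carries decides where it goes, for example *Cxcr2* for neutrophils that enter inflamed tissue, *Ccr7* for T cells and dendritic cells that enter lymph nodes, and *Cxcr5* for cells that enter B cell follicles. Methylation of cytosines in CpG dinucleotides is low at active promoters and enhancers and high over most of the rest of the genome. Dnmt3a sets part of this pattern during blood cell differentiation.

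Sequences of called regions, of a region that narrowly missed a call and of a promoter are shown on the + strand of mm10, in lower case with CpG dinucleotides in capitals. The region between *Cxcr5* and *Ddx6* is shown because it had the largest difference at these genes in both cell types, and its first 182 bases are the region listed in CD4+ cells. The stretches upstream of *Cxcr5* and in the intron of *Ccr4* are the 300 bases with the most CpGs of a longer region. The *Cxcr2* intron was called in CD11b+ cells, and the *Cxcr4* stretch narrowly missed a call in CD4+ cells. The *Cxcr2* promoter, the part of the RefSeq promoter entry (GRCm38.p6) before the gene's start, is shown as a contrast, since its 245 bases hold 1 CpG. RefSeq promoter entries were found for 7 of the 9 genes.
Cxcr5-Ddx6 region chr9:44598942-44599241: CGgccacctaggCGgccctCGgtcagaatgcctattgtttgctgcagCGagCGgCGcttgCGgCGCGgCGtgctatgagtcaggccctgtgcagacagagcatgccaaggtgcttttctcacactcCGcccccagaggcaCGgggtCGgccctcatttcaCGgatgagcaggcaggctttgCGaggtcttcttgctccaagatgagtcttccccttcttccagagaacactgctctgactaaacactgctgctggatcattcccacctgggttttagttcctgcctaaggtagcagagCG
Cxcr5 upstream, part chr9:44565434-44565733: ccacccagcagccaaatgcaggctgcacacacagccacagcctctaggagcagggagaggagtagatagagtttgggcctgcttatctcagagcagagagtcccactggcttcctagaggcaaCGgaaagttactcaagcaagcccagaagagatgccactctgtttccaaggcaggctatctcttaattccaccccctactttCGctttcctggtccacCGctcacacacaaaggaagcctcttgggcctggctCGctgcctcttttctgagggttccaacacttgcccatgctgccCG
Cxcr2 intron chr1:74156492-74156746: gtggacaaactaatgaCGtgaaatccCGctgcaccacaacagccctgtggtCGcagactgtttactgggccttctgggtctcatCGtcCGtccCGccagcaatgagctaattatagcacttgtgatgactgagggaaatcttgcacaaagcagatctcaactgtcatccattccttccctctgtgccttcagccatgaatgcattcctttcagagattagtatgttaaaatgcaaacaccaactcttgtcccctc
Ccr4 intron, part chr9:114502712-114503011: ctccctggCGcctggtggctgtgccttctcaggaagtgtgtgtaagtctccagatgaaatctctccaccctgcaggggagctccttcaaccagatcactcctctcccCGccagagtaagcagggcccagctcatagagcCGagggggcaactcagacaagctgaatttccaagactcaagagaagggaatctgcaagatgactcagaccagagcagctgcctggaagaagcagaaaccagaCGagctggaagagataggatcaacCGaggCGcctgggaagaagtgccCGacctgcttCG
Cxcr4 upstream chr1:128597267-128597428: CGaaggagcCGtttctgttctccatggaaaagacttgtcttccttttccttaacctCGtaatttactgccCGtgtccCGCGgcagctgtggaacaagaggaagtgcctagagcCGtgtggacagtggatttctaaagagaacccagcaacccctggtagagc
Cxcr2 promoter chr1:74153744-74153988: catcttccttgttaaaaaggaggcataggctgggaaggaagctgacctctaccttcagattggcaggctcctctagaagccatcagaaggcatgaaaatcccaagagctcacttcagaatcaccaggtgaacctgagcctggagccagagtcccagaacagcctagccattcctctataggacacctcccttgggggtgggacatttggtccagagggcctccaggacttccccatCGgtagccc
The *Cxcr5*–*Ddx6* stretch is dense in CpGs, with 16 in 300 bases, against 6 in the 255 bases of the *Cxcr2* intron. The parts printed for *Cxcr5* and *Ccr4* hold 5 and 8, and the *Cxcr4* stretch of 162 bases holds 7.

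Methylation was lower in R878H/+ than in WT cells at most listed regions of the receptor genes. Of the 122 regions of CD11b+ cells, 92.6% were lower, beside 93.4% of all listed regions, and 9 were higher. Of the 177 regions of CD4+ cells, 96.0% were lower, beside 95.5%, and 7 were higher. Most of all listed regions therefore shared the direction, and the direction alone does not set the receptor genes apart. The size of the difference, called the loss below and given as WT minus R878H/+ in percentage points of methylation, had a median of 10.9 at the receptor genes in CD11b+ cells, with the middle of the distribution (quartiles) from 5.05 to 15.8. The quartiles of all listed regions in that table were 4.00 and 10.6. In CD4+ cells the median loss was 11.0 (quartiles 6.00 and 18.2), and all listed regions had quartiles of 4.32 and 10.6.

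Losses above 20 points were found at 21 receptor regions in CD11b+ cells, or 17.2%, beside 7.01% of all listed regions. In CD4+ cells there were 34, or 19.2%, beside 6.23% of all. These regions lay at 6 of the 9 genes in each cell type, though not the same 6, since *Ccr7* was among them only in CD11b+ and *Ccr6* only in CD4+ cells. The largest *Ccr7* loss in CD4+ cells was 19.7 points, and *Ccr6* had fewer listed regions in CD11b+ than in CD4+ cells. Genes with such a region were not counted over all protein-coding genes. By position, 9 of the 21 in CD11b+ cells overlapped the body of the receptor gene itself, 9 lay upstream of it and 3 downstream. In CD4+ cells, 16 of the 34 overlapped the receptor's own body, 14 lay upstream and 4 downstream.

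A region was called hypomethylated by the criteria of the study, with more than 10 CpG cytosines, a loss above 20 points and a q-value below 0.05. The number of CpGs in the tables counts cytosines of either strand that had data, so that 10 of them correspond to 5 or more dinucleotides. The q-value is the output of the program metilene, which pools cytosines and mice, and is used here only for the call. Of the receptor regions, 48 in CD11b+ and 78 in CD4+ cells had more than 10 CpG cytosines. Hypomethylated calls were made at 3 receptor regions in CD11b+ cells, where 0.576% of all listed regions were called, and at 4 in CD4+ cells, where 0.665% were. Counted over regions with more than 10 CpG cytosines, the shares of all listed regions were 1.38% and 1.49%. Hypermethylated calls numbered 0 at the receptor genes in both cell types, by the q-values of metilene, beside 0.0126% and 0.000542% of all listed regions and beside 0.440% and 0.0157% of the protein-coding genes that could hold one. Of the genes, *Cxcr2*, *Ccr4* and *Cxcr5* with its stretch to *Ddx6* held a call in CD11b+ cells, 3 of 9, beside 9.86% of the protein-coding genes that could hold one within 10 kb. The call credited to *Cxcr5* in CD11b+ cells lies outside its 10 kb window, in the added segment, and without the segment the count was 2 of 9. In CD4+ cells only *Cxcr5* with its stretch held calls, 1 of 9, beside 13.4%. A gene could hold a call only where a region with more than 10 CpG cytosines was listed, which was so for 7 of the 9 genes in CD11b+ and 8 in CD4+ cells.

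**Figure D1:**
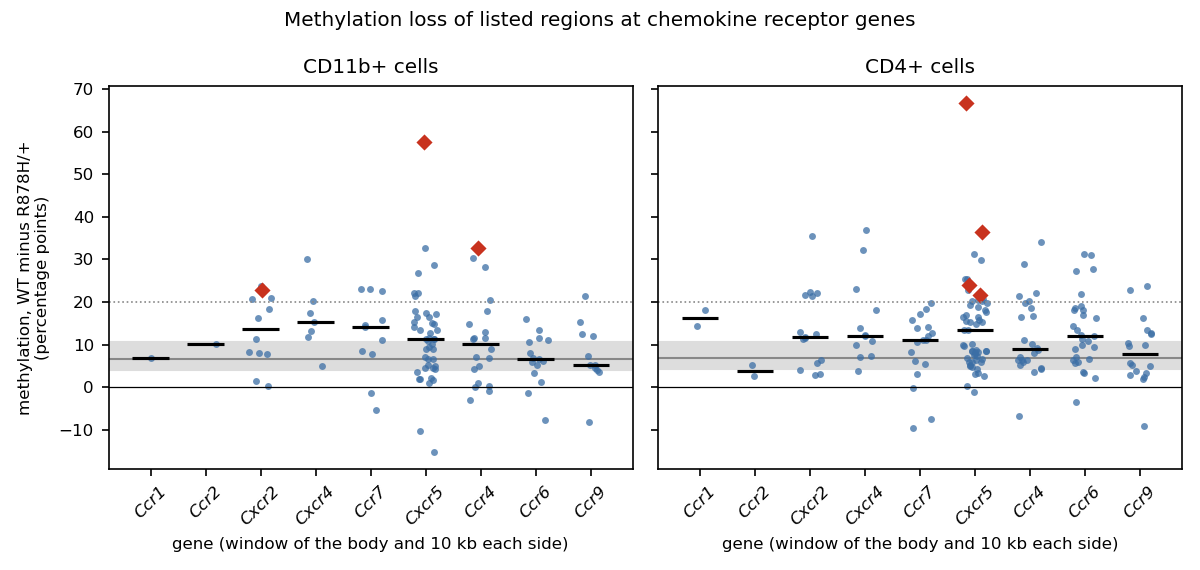
Loss of methylation (WT minus R878H/+, percentage points, vertical axis) of every listed region at the 9 receptor genes (horizontal axis) in CD11b+ cells (left) and CD4+ cells (right). Each point is 1 region, red diamonds are hypomethylated calls, black bars are gene medians, the grey line and band are the median and quartiles of all listed regions, and the dotted line marks 20 points; the 2 highest diamonds, 57.5 in CD11b+ and 66.6 in CD4+ cells, are the region between *Cxcr5* and *Ddx6*.

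The largest loss at these genes was found between *Cxcr5* and *Ddx6*. *Cxcr5* codes for the receptor of Cxcl13, which draws B cells and follicular helper T cells into follicles, and *Ddx6* for an RNA helicase of mRNA decay bodies. In CD4+ cells, mean methylation of chr9:44598942-44599123 was 82.5% in WT and 15.9% in R878H/+, a loss of 66.6 points (q = 5.7e-15, 20 CpG cytosines). In CD11b+ cells, the region chr9:44598942-44599241 had 71.2% in WT and 13.7% in R878H/+, a loss of 57.5 points (q = 2.2e-15, 20 CpG cytosines). By size of loss it ranked 1 of all regions in the CD4+ table and 27 in the CD11b+ table. The region overlaps an exon of *Gm47232*, a long intergenic noncoding RNA at chr9:44598855-44599720. It lies 37065 bases from the nearest start of *Cxcr5* and, by its end in CD11b+ cells, 5651 bases from the start of *Ddx6*. It is therefore nearer to *Ddx6* than to *Cxcr5*.

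The neighbouring listed regions had smaller losses. In CD4+ cells the next listed region on the *Cxcr5* side, chr9:44598293-44598599, had 92.9% in WT and 84.7% in R878H/+. On the *Ddx6* side, chr9:44600720-44601203 had 85.2% in WT and 63.6% in R878H/+, which was also called (q = 0.018), and chr9:44601376-44601804 had 96.8% and 91.7%. In CD11b+ cells the nearest listed regions were farther away, with 88.1% in WT and 83.0% in R878H/+ at chr9:44595026-44595288 and 24.3% and 17.8% at chr9:44606295-44606802, in the first part of *Ddx6*. The neighbours thus differed between genotypes by 5.05 to 21.6 points, against 57.5 and 66.6 at the region itself. The region had 8.24 CpGs per 100 bases as listed in CD4+ cells and 5.33 as listed in CD11b+ cells, beside a median of 1.58 over all listed regions of CD11b+ cells. Its GC content was 64.3% and 59.0%, and 0% of its bases were masked as repeats. Beyond the 10 kb window of *Cxcr5*, the added segment held 11 listed regions in CD11b+ and 16 in CD4+ cells, all lower in R878H/+, with median losses of 9.33 and 8.38 points. Of these, 1 in each cell type lay on the other side of *Cxcr5*, in *Bcl9l*, and the 10 and 15 on the side of *Ddx6* had medians of 9.02 and 8.55.

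**Figure D2:**
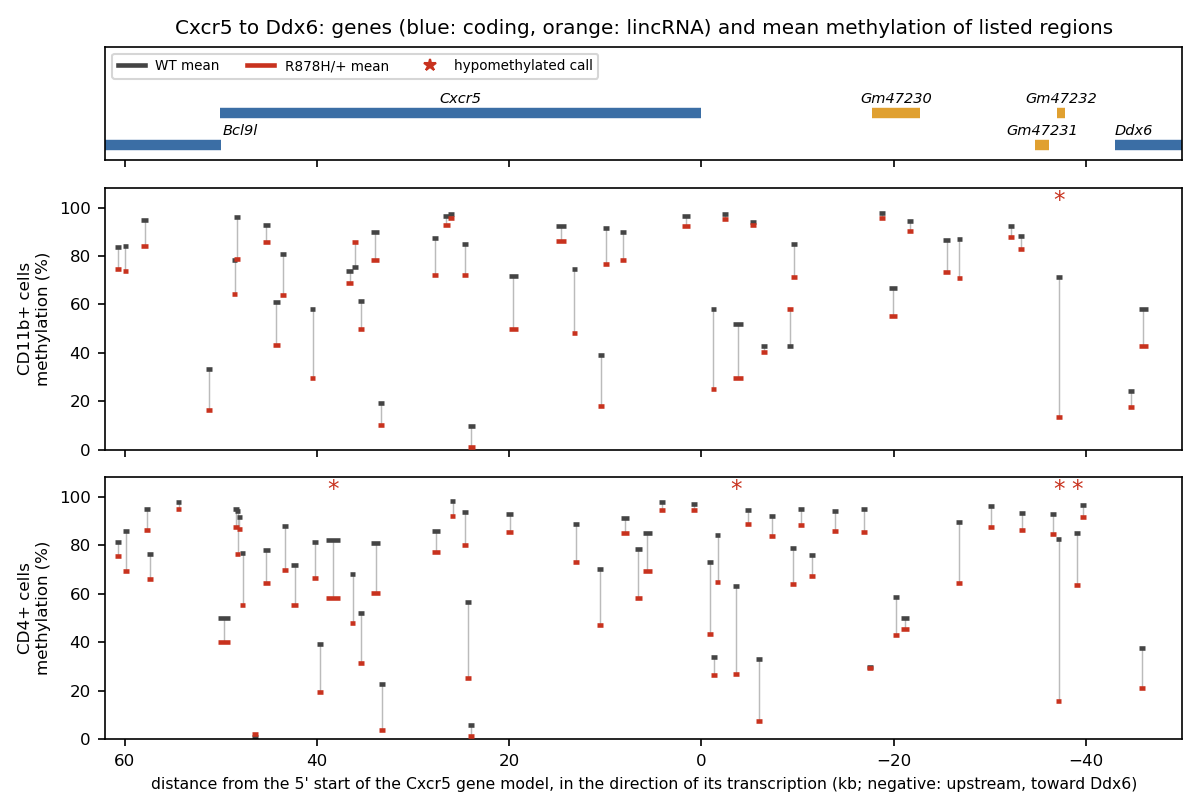
Mean methylation (percent, vertical axes) of listed regions from the end of *Bcl9l* through *Cxcr5* to the first part of *Ddx6*, by distance in kb from the 5′ start of the *Cxcr5* gene model (horizontal axis; *Cxcr5* is transcribed to the left, and short regions are drawn wider). Dark bars are WT, red bars are R878H/+, grey lines join the pair of 1 region, asterisks mark hypomethylated calls, and the top panel shows the genes; the called region in *Gm47232* has 71.2% and 13.7% in CD11b+ and 82.5% and 15.9% in CD4+ cells.

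*Cxcr5* itself had the most listed regions of the 9 genes, 44 in CD11b+ and 57 in CD4+ cells with the stretch included, over a gene model of 50.1 kb. The median loss was 11.4 points in CD11b+ and 13.3 in CD4+ cells. Upstream of the gene, chr9:44565185-44565750 had 63.2% in WT and 26.9% in R878H/+ CD4+ cells. It was called, with a loss of 36.3 points (q = 0.0051), at 3308 bases from the start of the longest *Cxcr5* transcript. The region of the same start in CD11b+ cells, chr9:44565185-44566170, had 52.0% and 29.8% and was not called (q = 1). Another upstream region of CD4+ cells, chr9:44567722-44568048, had 32.9% in WT, a loss of 25.4 points and a q-value of 0.0058, but was not called because it has 10 CpG cytosines. The region 749 bases upstream of the start, chr9:44562626-44562982, had 73.1% and 43.2% in CD4+ cells. Of the 6 CD4+ regions nearest upstream of the start, 4 thus had losses from 19.2 to 36.3 points, and the other two had 7.23 and 5.79.

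Inside *Cxcr5*, the called region of CD4+ cells was chr9:44522857-44524254, an intronic region with 82.1% in WT and 58.2% in R878H/+ (q = 0.037), of which 48.7% is masked as repeats. At starts of shorter *Cxcr5* transcripts, chr9:44555766-44556743 had 84.9% in WT and 69.4% in R878H/+ CD4+ cells. Around further starts deeper inside the gene, chr9:44526226-44526671 had 51.9% in WT and 31.4% in R878H/+ CD4+ cells. The matching region of CD11b+ cells had 61.4% in WT and a loss of 11.3 points. Another intronic region of CD4+ cells, chr9:44537429-44537797, had 56.5% in WT and 25.3% in R878H/+. The overlapping region of CD11b+ cells, chr9:44537592-44538293, was low, with 9.93% in WT and 0.975% in R878H/+. A further CD4+ region, chr9:44537829-44538037, lay wholly inside that CD11b+ region and was low too, with 5.85% in WT and 1.10% in R878H/+. The more methylated CD4+ region starts outside the CD11b+ region and covers only part of it, so their levels do not refer to the same bases. *Cxcr5* also held the largest gain at these genes, at chr9:44571043-44571163 in CD11b+ cells, with 43.0% in WT and 58.2% in R878H/+, which was not called (q = 1).

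*Cxcr2* codes for the receptor of Cxcl1 and Cxcl2 that draws neutrophils into inflamed tissue and is typical of granulocytes. All of its listed regions were lower in R878H/+, 12 in CD11b+ and 15 in CD4+ cells, with median losses of 13.7 and 11.7 points. The called region of CD11b+ cells lies in an intron 2501 bases from the start, at chr1:74156492-74156746, with 31.8% in WT and 9.12% in R878H/+ (q = 0.021, 13 CpG cytosines). The same stretch in CD4+ cells had 68.0% in WT and 32.5% in R878H/+, a loss of 35.4 points that missed the call by its q-value of 0.055. The stretch was thus 36.2 points lower in WT CD11b+ than in WT CD4+ cells, and the R878H/+ CD4+ value lay 0.769 points above the WT CD11b+ value. The tables of the cell types were made separately, so these levels are set side by side without a test.

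At the *Cxcr2* start, chr1:74153472-74154216 had 58.6% in WT and 40.2% in R878H/+ CD11b+ cells. In CD4+ cells the region there had 64.3% and 42.2%. Between this start and the intronic stretch, CD4+ cells had 90.2% in WT and 77.7% in R878H/+ at chr1:74154432-74155194, and in CD11b+ cells the 122 bases just before the called region had 59.6% and 43.4%. The largest loss at *Cxcr2* in CD11b+ cells lay downstream of the gene, at chr1:74167077-74167676, with 66.5% in WT and 42.7% in R878H/+, where the CD4+ values were 87.8% and 74.8%. Upstream of *Cxcr2*, the regions that overlap *Rufy4* had losses of 20.7 and 21.0 points in CD11b+ cells and of 4.00 to 11.7 points in CD4+ cells.

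*Cxcr4* codes for the receptor of Cxcl12, which holds haematopoietic cells and neutrophils in the bone marrow. All of its listed regions were lower in R878H/+, 7 in CD11b+ and 12 in CD4+ cells, with median losses of 15.3 and 12.0 points, and none was called. The largest losses lay upstream of the gene. At 1083 bases from the start, CD11b+ cells had 44.9% in WT and 14.7% in R878H/+ at chr1:128593376-128593854, and CD4+ cells had 59.3% and 22.5% at chr1:128593503-128593813. Both regions were counted at 10 CpG cytosines and could not be called, and their q-values were not below 0.05 either. Farther out, at 4974 bases, CD4+ cells had 58.5% in WT and 26.4% in R878H/+ at chr1:128597267-128597428 (q = 0.043, 10 CpG cytosines), and CD11b+ cells had 34.6% and 17.3% at chr1:128597257-128597666. Between them lay regions that were more methylated, with 81.4% in WT and 61.2% in R878H/+ CD11b+ cells over 1878 bases, and 89.7% and 71.5% in CD4+ cells over 962 bases. Nearest to the start, at chr1:128592910-128593136, CD4+ cells had 8.69% in WT and 1.38% in R878H/+, the lowest levels at this gene.

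**Figure D3:**
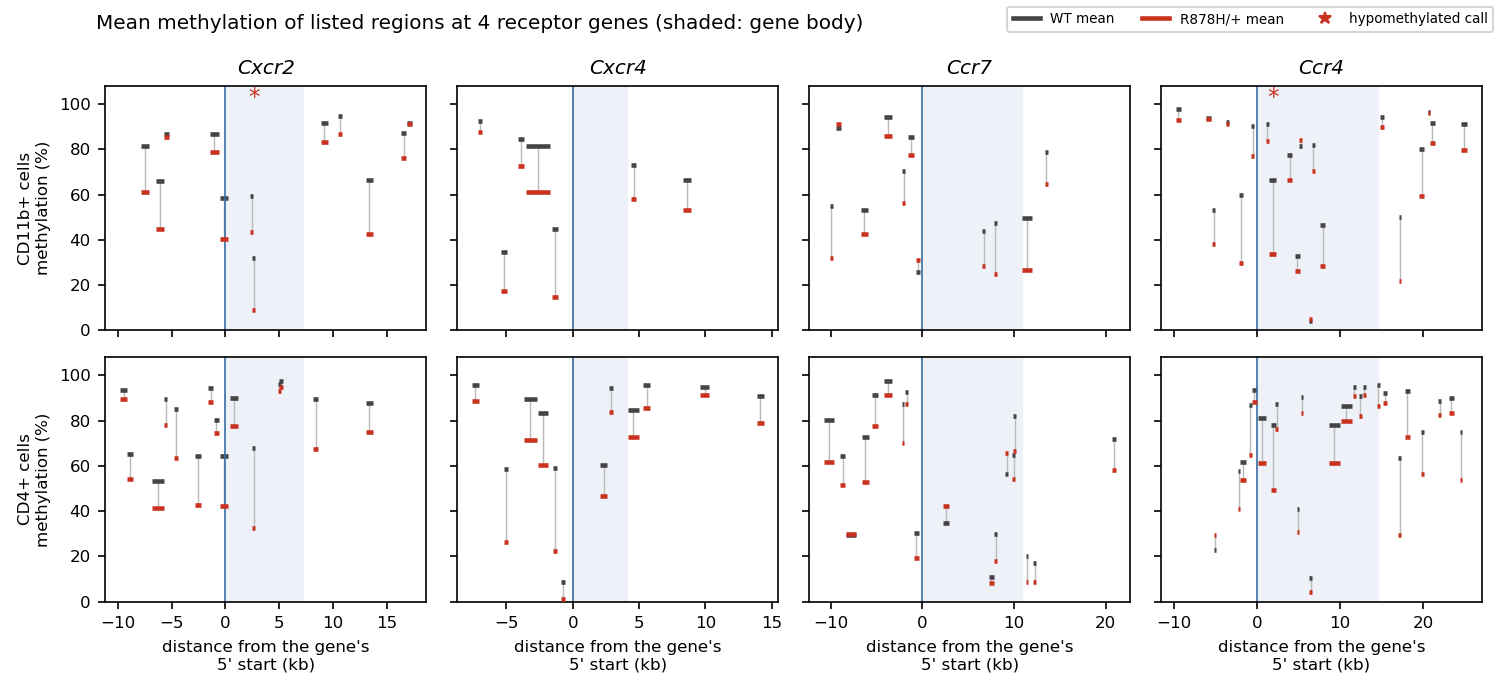
Mean methylation (percent, vertical axes) of listed regions at *Cxcr2*, *Cxcr4*, *Ccr7* and *Ccr4* by distance in kb from the 5′ start of the gene (horizontal axes, in the direction of transcription), in CD11b+ (top) and CD4+ cells (bottom). Dark bars are WT, red bars R878H/+, grey lines join the pair of 1 region, asterisks mark hypomethylated calls and shading the gene body; at *Cxcr2* the called stretch has 31.8% and 9.12% in CD11b+ and 68.0% and 32.5% in CD4+ cells.

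*Ccr4*, the receptor of Ccl17 and Ccl22 on type 2 helper and regulatory T cells, held the third call of CD11b+ cells. The region chr9:114502606-114503403, in an intron 1513 bases from the start, had 66.6% in WT and 33.9% in R878H/+ (q = 0.015, 21 CpG cytosines). CD4+ cells had a pair of regions there, with 78.3% in WT and 49.4% in R878H/+ at chr9:114502673-114503218, and 87.5% and 76.5% at chr9:114502395-114502672. Downstream of the gene, chr9:114487590-114487896 had 50.2% and 21.9% in CD11b+ cells and chr9:114487599-114487929 had 63.5% and 29.4% in CD4+ cells, the latter the largest loss at *Ccr4* in CD4+ cells (34.1 points, q = 1). Upstream, the values of the cell types parted, with 59.9% in WT and 29.6% in R878H/+ at chr9:114506612-114507042 in CD11b+ cells, against 61.6% and 53.7% at the overlapping region in CD4+ cells. Median losses over the 20 and 24 listed regions were 10.2 and 8.90 points. The upstream window overlaps *Trim71*, which codes for an RNA-binding protein, with a pair of regions in CD4+ cells that went opposite ways. At chr9:114506953-114507218 methylation was 57.6% in WT and 40.8% in R878H/+, and at chr9:114509918-114509969 it was 22.9% and 29.6%.

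*Ccr7* codes for the receptor of Ccl19 and Ccl21, which guides naive T cells and mature dendritic cells to lymph nodes. It had the lowest median WT methylation of the 9 genes, 55.1% in CD11b+ and 64.6% in CD4+ cells. Losses above 20 points were listed for 3 regions in CD11b+ and for 0 in CD4+ cells, where the largest was 19.7. At the end of the gene, chr11:99143088-99144213 had 49.8% in WT and 26.8% in R878H/+ CD11b+ cells (23 CpG cytosines, q = 1). Inside it, at chr11:99143514-99143805, WT CD4+ cells were 29.8 points below WT CD11b+ cells, and R878H/+ CD4+ cells had 8.88%. The intronic region chr11:99146885-99147317 had 47.3% and 24.8% in CD11b+ cells, and chr11:99146886-99147243 had 29.8% and 17.9% in CD4+ cells. Both were lower in WT CD4+ than in WT CD11b+ cells, the reverse of the *Cxcr2* intron. Of 7 pairs of overlapping regions at *Ccr7*, however, WT CD11b+ cells were lower at 5 and WT CD4+ cells at 2. The median of WT CD11b+ minus WT CD4+ over these pairs was -4.41 points. Close to the start, chr11:99155334-99155825 had 25.8% in WT and 31.1% in R878H/+ CD11b+ cells, so it was higher in the mutant, whereas chr11:99155479-99155992 in CD4+ cells had 30.2% and 19.2%. The difference between the cell types was not tested.

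*Ccr6*, the receptor of Ccl20 on type 17 helper T cells and B cells, had larger losses listed in CD4+ than in CD11b+ cells, a difference that was not tested. In CD11b+ cells 0 of 15 regions had a loss above 20 points, the largest loss was 15.9, and the median was 6.61. In CD4+ cells 5 of 29 did, with a median of 12.1. The largest, chr17:8233602-8233740 upstream of the gene, had 81.1% in WT and 49.9% in R878H/+ (q = 0.28). Further CD4+ regions inside the gene had 65.8% in WT and 38.0% in R878H/+ at chr17:8238227-8238461, 76.3% and 45.4% at chr17:8241827-8242368 (q = 0.15), and 76.7% and 49.5% at chr17:8243695-8243880. The last of these overlaps starts of *Ccr6* transcripts. At another transcript start, chr17:8242399-8242745 had 57.7% in WT and 38.6% in R878H/+ CD4+ cells, while chr17:8242135-8242744 in CD11b+ cells had 73.0% in WT and 80.6% in R878H/+.

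*Ccr9*, the receptor of Ccl25 that directs T cells to the small intestine and thymus, had median losses of 5.17 points in CD11b+ and 7.67 in CD4+ cells. Its gene model spans 106 kb because of 1 long transcript, and the window holds *Slc6a20a*, *Lztfl1* and *Fyco1* as well. The largest losses lay at chr9:123683457-123683703, with 61.2% in WT and 39.9% in R878H/+ CD11b+ cells, and at chr9:123683457-123683698, with 82.0% and 58.2% in CD4+ cells, 5018 bases from the start of the long transcript and far from those of the others. At the starts of most *Ccr9* transcripts, chr9:123767210-123767872 was higher in R878H/+ CD4+ cells, with 47.9% in WT and 57.1% in R878H/+ (q = 1). The intronic region chr9:123740756-123741270 had 76.6% and 53.8% in CD4+ cells.

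*Ccr2* codes for the receptor of Ccl2 that inflammatory monocytes need to leave the bone marrow, and *Ccr1* for a receptor of Ccl3 and Ccl5 on monocytes and neutrophils. Only 1 region in CD11b+ and 2 in CD4+ cells were listed for each, and losses above 20 points numbered 0. At the start of *Ccr2*, chr9:124101656-124102094 had 60.2% in WT CD11b+ cells, with a loss of 10.2 points. In CD4+ cells the overlapping region had 81.8% and 79.2%, so the WT CD4+ cells were 21.6 points above the WT CD11b+ cells, with a loss of 2.65 points. At *Ccr1*, the values were 87.0% in WT and 80.1% in R878H/+ in CD11b+, and 88.7% and 74.4% in CD4+ cells, both in the neighbouring gene *Ccr1l1*. The other *Ccr1* region of CD4+ cells, chr9:123957762-123958789 downstream of the gene, had 77.9% and 59.8%.

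Overlapping regions of the tables, by 50% or more of the shorter region, allowed the WT levels of the cell types to be set side by side at 74 pairs. The absolute difference between WT CD11b+ and WT CD4+ cells had a median of 8.03 points at the receptor genes, beside 3.44 over all pairs of the tables. WT CD11b+ cells were lower by more than 20 points at 11 pairs, or 14.9%, beside 5.17% of all pairs, and WT CD4+ cells were lower by more than 20 points at 5 pairs, or 6.76%, beside 2.02%. The former included the *Cxcr2* intron, the *Ccr2* start and the far upstream *Cxcr4* region (34.6% against 58.5%), and the latter the end of *Ccr7*. By gene, the 11 pairs were 3 at *Cxcr5*, 2 each at *Cxcr2* and *Ccr6*, and 1 each at *Ccr2*, *Cxcr4*, *Ccr7* and *Ccr9*. The 5 pairs were 2 at *Cxcr5* and 1 each at *Ccr7*, *Ccr4* and *Ccr6*. Methylation was lower in R878H/+ in both cell types at 66 of the 74 pairs, beside 190419 of 202746 over all pairs. It was lower in 1 cell type only at 8 of the 74, among them the pairs at *Ccr6* and *Ccr7* starts described above. Losses above 20 points were found in both cell types at 9 pairs, in CD11b+ cells alone at 11 and in CD4+ cells alone at 9. This split was not counted over all pairs.

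**Figure D4:**
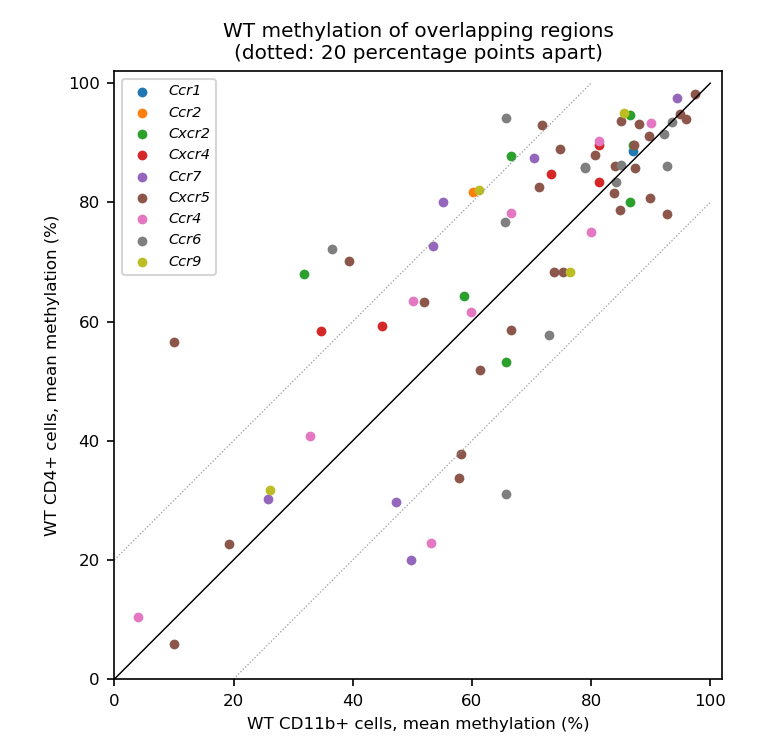
WT mean methylation (percent) of overlapping listed regions in CD11b+ cells (horizontal axis) and CD4+ cells (vertical axis), 1 point per pair of regions, coloured by gene. The solid line is equality and the dotted lines lie 20 points away; 11 pairs lie above the upper dotted line, among them the *Cxcr2* intron at 31.8% and 68.0%, and 5 below the lower one, among them the end of *Ccr7* at 49.8% in CD11b+ cells.

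The labels were checked against marker genes in the same way. Over all pairs, WT CD11b+ cells were lower at 124677 of 202746, with a median of -1.21 points for WT CD11b+ minus WT CD4+. That direction is thus the more common one over all pairs, though not at every gene. WT methylation was lower in CD11b+ cells at 5 of the 6 myeloid genes with a pair, such as *Spi1* (69.8% against 88.4%) and *Fcgr3* (64.4% against 89.7%). The difference was smallest at *Csf1r* (90.1% against 90.8%) and reversed at *Itgam*, the gene of CD11b itself (90.9% against 83.3%). WT methylation was lower in CD4+ cells at 4 of 8 T cell genes, most at *Bcl11b* (39.0% against 70.2%). It was also lower in CD11b+ than in CD4+ cells at 6 of 6 B cell genes, least at *Pax5* (81.9% against 82.7%), with *Cd79b* at 23.4% against 54.3% and *Cd79a* at 41.6% against 66.4%. *Cxcr5*, *Ccr6* and *Ccr7* are also expressed by B cells, and the part of B cells in the CD11b+ values of these genes was not tested. In a mean over a cell fraction, a change in which cells make it up and a change within the cells cannot be told apart.

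The receptor genes started from a lower WT level than the listed regions as a whole, and the loss varied with that level. Median WT methylation of the receptor regions was 81.4% in CD11b+ and 82.9% in CD4+ cells, beside 88.9% and 89.9% of all listed regions. Over all listed regions the median loss was largest at a WT level of 50 to 60%, with 16.2 points in CD11b+ and 15.4 in CD4+ cells, and smaller toward both ends. Within that range the receptor regions had medians of 22.2 (11 regions) and 18.1 points (11 regions). Between 80 and 90% in WT, they had 10.2 points (29 regions) in CD11b+ and 15.4 (45 regions) in CD4+ cells, beside 7.43 and 8.20 of all listed regions. Between 90 and 100%, they had 4.73 (34 regions) and 6.25 points (57 regions), beside 4.85 and 5.18. Of the 10 ranges of WT level, the receptor regions had the larger median in 7 in CD11b+ and in 6 in CD4+ cells. The other ranges included 60 to 70% in CD11b+ cells, with 13.3 points (12 regions) beside 15.0, 20 to 30% in CD11b+ cells, with 4.38 (3 regions) beside 10.8, and 40 to 50% in CD4+ cells, with 6.85 (4 regions) beside 14.4. The receptor genes had more regions of intermediate WT methylation, with lower quartiles of 59.7% and 64.3% beside 78.1% and 81.4% of all listed regions, and the part of this in their larger losses was not tested.

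**Figure D5:**
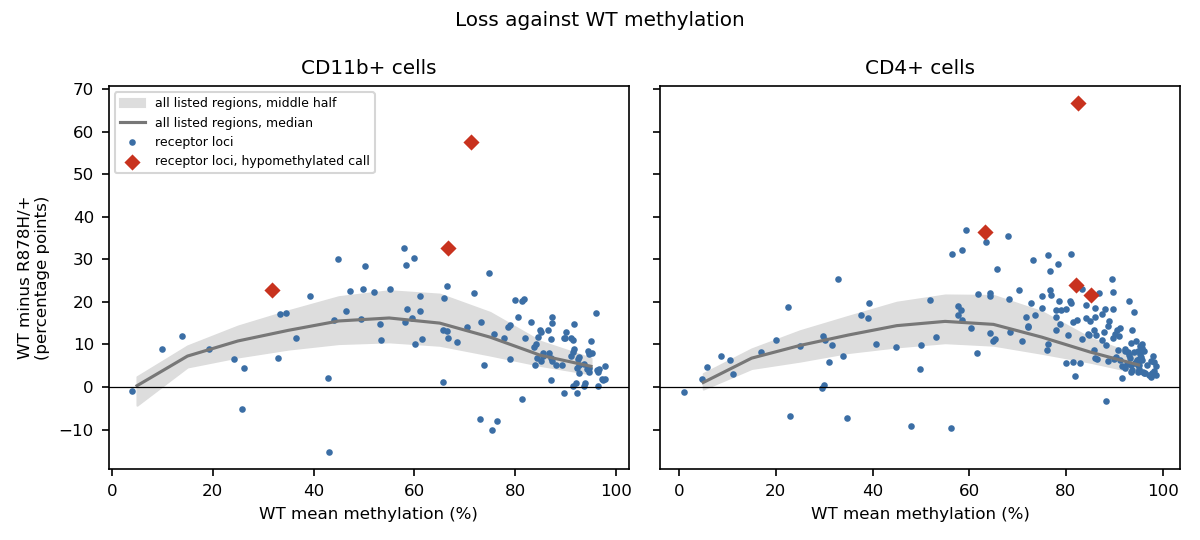
Loss of methylation (WT minus R878H/+, percentage points, vertical axis) against WT mean methylation (percent, horizontal axis) in CD11b+ (left) and CD4+ cells (right). Points are receptor regions, red diamonds their hypomethylated calls, and the grey line and band are the median and quartiles of all listed regions in steps of 10% of WT methylation; the line peaks at 16.2 and 15.4 points between 50 and 60%.

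For the other genes of the pathway, the same share of protein-coding genes with a call, 9.86% in CD11b+ and 13.4% in CD4+ cells, is the background. Of the 4 atypical receptors, which take up chemokines without G protein signalling, 0 of the 3 with a region that could be called held one in CD11b+ and 0 of 4 in CD4+ cells. Of 19 ligands of the 9 receptors, 0 of 15 and 0 of 16 did, in the same order. Among 17 genes of receptor signalling, calls were found at 3 of 16 in CD11b+ and 5 of 17 in CD4+ cells. Values given for these genes are of the region with the largest loss in the window, among those with more than 10 CpG cytosines. That region need not be the called one. In CD4+ cells the genes with calls included *Rgs1*, an inhibitor of G protein signalling in lymphocytes (78.2% and 38.6%), *Pik3cg*, the PI3-kinase that G protein βγ subunits activate (57.7% and 16.5%), *Gng2*, a γ subunit (81.8% and 56.8%), and *Elmo1*, a partner of Dock proteins in Rac activation (73.6% and 38.0%). In CD11b+ cells *Grk3*, a kinase that desensitizes receptors, held a call, and its region of largest loss had 50.8% and 20.2%. The windows of *Plcb2* in both cell types and of *Gnai3* in CD11b+ cells also held calls. Their largest losses lay in neighbouring genes, *Ankrd63* and *Gnat2*. Hypermethylated calls numbered 0 at all of these genes.

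The receptor regions nearest to the threshold of 20 points, 2 on each side in each cell type, had a q-value of 1 and were not called. Among regions with more than 10 CpG cytosines, those just inside 20 points in CD11b+ cells were at *Cxcr4* (loss 20.1) and *Ccr4* (20.5), and those just outside at *Cxcr5* (17.4) and *Cxcr4* (17.3). In CD4+ cells, a pair of *Cxcr5* regions lay just inside (20.2 and 20.3), and regions of *Ccr7* (19.7) and *Cxcr5* (18.7) just outside. With both the loss and the number of CpG cytosines met, 9 regions in CD11b+ and 14 in CD4+ cells remained, of which the q-value left 3 and 4. Regions of exactly 10 CpG cytosines made up 60.7% and 55.9% of the receptor regions, and 58.2% and 55.3% of all listed regions, and could not be called at any loss.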

How the data were processed

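Splenic CD11b+ and CD4+ cells of WT and *Dnmt3a* R878H/+ mice were profiled by WGBS, and samples were grouped by the labels. Reads were aligned by the authors with BISCUIT (genome mm10), and metilene divided the CpG ratios into regions. FastQC is named in the submitters' processing notes; versions, parameters and a coverage minimum are not given in the sources used here. The deposited tables give, per region, each group's mean methylation in percent, a q-value and the number of CpG cytosines. Their columns of differences, Mann-Whitney p-values and 2-dimensional Kolmogorov-Smirnov p-values, the authors' own comparisons, were not used. Columns with values of single samples number 0, and depth is not listed.

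Group means were subtracted (WT minus R878H/+). Coordinates are mm10, counted from 1. Genes came from GENCODE release 21 and sequences from GRCm38.p6. The calls of both directions and the overlap of regions with a window were tested on simulated data with known answers. The pairing of regions between cell types was not tested in this way. The receptors, marker and pathway lists and criteria were chosen with earlier results of these data known. The text names, by rule, the receptors, their called regions, the region with more than 10 CpG cytosines and the largest difference per gene and cell type, regions near the threshold, *Ddx6* and pathway genes with calls. Other regions were chosen after their values were seen. Results for the other chemokine receptors and for 1 marker gene are not reported here. Alternatives changed the q-value, the difference, the number of CpGs, the window, the overlap, the weight of regions and the stretch to *Ddx6*. Python 3.11.15, numpy 2.4.6, pandas 2.3.3, pysam 0.24.0, matplotlib 3.10.9 and samtools 1.23.1 were used.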

Additional observations from a re-analysis of the deposited data

How the results depend on the processing

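The median losses stayed between 10.8 and 15.8 points in CD11b+ cells and between 10.5 and 16.5 in CD4+ cells under 8 alternatives each, within 1.5 times the reported values. The 3 hypomethylated calls of CD11b+ cells became 1 with a q-value below 0.01, 9 with no q-value threshold and 1 with more than 20 CpG cytosines, and the 3 genes that held them became 1, 5 and 1. The 4 calls of CD4+ cells became 2, 14 and 1 in the same order, 2 with a difference above 30 points, and 2 with the stretch to *Ddx6* left out. The 1 gene with a call in CD4+ cells became 5 with no q-value threshold, 2 with windows of 20 kb and 2 with 10 or more CpG cytosines, an alternative chosen after seeing the data that adds *Cxcr4*. Other alternatives moved these counts by no more than 1.5 times. The alternatives of window size kept the whole added segment, which holds all 4 calls of CD4+ cells. The calls of CD11b+ cells lie in it or in gene bodies, so smaller windows could not lower the counts.

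No paired analysis was possible because the tables hold group means and no column carries a replicate number; likewise, leaving out a replicate was not possible. Depth per region is unknown, and the q-value pools cytosines and mice.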
